A study of Homo sapiens with 8 samples.

Results

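The genes described here are 10 genes of the WNT/β-catenin pathway, AXIN2, LGR4, LGR5, RNF43, ZNRF3, SP5, LEF1, TCF7, TCF7L1 and TCF7L2, out of 20007 protein-coding genes in the annotation (GENCODE release 44, hg38). The genes were taken by name, and every H3K27ac peak in the gene body or within 50 kb on either side of it was collected in each library. These windows held 17 of 13606 peaks in DMSO replicate 1, 16 of 14248 in DMSO replicate 2, 15 of 12887 in I-BET151 replicate 1 and 16 of 12312 in I-BET151 replicate 2. Merged across libraries wherever peaks shared at least 1 bp, they formed 20 of 15752 regions.

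Histone H3 acetylated at lysine 27 (H3K27ac), a mark of active promoters and enhancers, was measured by ChIP-seq in pancreatic progenitors (PPs) derived from MEL1, an established embryonic stem cell line of human origin, which the study's methods list as MEL1 INS GFP/W, a line with a GFP reporter at the insulin gene. All PPs were kept in EF6, a DMEM-based medium with B27, EGF, bFGF and the TGFβ inhibitor 616452, and were given either DMSO, the solvent, or 1 μM I-BET151, an inhibitor of the acetyl-lysine binding bromodomains of BET proteins, for 7 days. Peaks were called separately in 2 DMSO and 2 I-BET151 libraries, each of which had its own input library, the sheared chromatin before immunoprecipitation. All libraries came from a single cell line, no sorting step is named in the labels, and nothing states that the replicates were separate cultures, so that the p-values below measure a spread that may be technical.

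Canonical WNT signalling stabilises β-catenin, which enters the nucleus and acts on genes bound by TCF/LEF proteins. Several of the genes that it switches on act back on the pathway itself: AXIN2 is a scaffold of the complex that destroys β-catenin, RNF43 and ZNRF3 are membrane ubiquitin ligases that remove Frizzled receptors, LGR4 and LGR5 bind R-spondins, which hold these ligases in check, and SP5 is a transcriptional repressor. LEF1, TCF7, TCF7L1 and TCF7L2 are the DNA-binding partners of β-catenin, and in the developing pancreas the pathway is known for roles in progenitor growth.

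The letters that TCF/LEF proteins recognise, CTTTGAT or its reverse complement ATCAAAG, were searched in the called regions of the windows and in RefSeq promoter sequences of these genes, and occurred inside them at the following places. They are shown because they are the pathway's own recognition letters at its feedback genes, as reference hg38 plus-strand sequence with 11 bases on either side and the match in capitals. The first AXIN2 match (chr17:65561568-65561574) lies in an untranslated exon 80 bp past the main annotated start, in a peak in all 4 libraries. The next (chr17:65560780-65560786) lies in an intron 868 bp past that start, in a peak in all libraries but DMSO replicate 1. The ZNRF3 match (chr22:29030886-29030892) lies in an intron, in a peak in all 4 libraries, and the SP5 match (chr2:170715228-170715234) lies 109 bp before the start of SP5, in no peak.
AXIN2 exon: gccaggaccttATCAAAGcgcagccggct
AXIN2 intron: ccgccccgcacATCAAAGcgcgcggtccg
ZNRF3 intron: tggcttcagcgCTTTGATctcctgccagg
SP5 upstream: gagccgctattCTTTGATgattgggtagc

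Longer plus-strand sequences are given for the stretches that were called in both DMSO libraries only and for the shared ZNRF3 region beside one of them. The first is a window around the summit of the ZNRF3 intron region that was called in all 4 libraries (chr22:29030602-29030901, 300 of its 687 bp, with the TCF/LEF letters in capitals). The second is the neighbouring stretch of the same intron that was called in both DMSO libraries only (chr22:29031645-29031943). The last is the stretch before the start of TCF7L2 that was called in both DMSO libraries only (chr10:112949831-112950130, 300 of its 317 bp). Their G and C content was 71%, 60.9% and 66.7%, and the second and last held none of the TCF/LEF letters.
ZNRF3 shared: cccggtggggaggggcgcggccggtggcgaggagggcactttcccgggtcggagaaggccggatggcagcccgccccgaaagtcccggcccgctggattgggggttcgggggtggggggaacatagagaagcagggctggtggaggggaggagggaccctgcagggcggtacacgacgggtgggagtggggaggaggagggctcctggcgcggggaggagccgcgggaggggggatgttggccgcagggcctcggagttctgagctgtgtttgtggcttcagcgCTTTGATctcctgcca
ZNRF3 DMSO only: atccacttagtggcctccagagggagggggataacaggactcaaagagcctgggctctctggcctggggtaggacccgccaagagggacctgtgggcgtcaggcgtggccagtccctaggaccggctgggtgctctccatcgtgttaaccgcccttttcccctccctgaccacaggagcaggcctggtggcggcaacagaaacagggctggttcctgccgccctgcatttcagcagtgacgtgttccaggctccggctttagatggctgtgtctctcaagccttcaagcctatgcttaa
TCF7L2 DMSO only: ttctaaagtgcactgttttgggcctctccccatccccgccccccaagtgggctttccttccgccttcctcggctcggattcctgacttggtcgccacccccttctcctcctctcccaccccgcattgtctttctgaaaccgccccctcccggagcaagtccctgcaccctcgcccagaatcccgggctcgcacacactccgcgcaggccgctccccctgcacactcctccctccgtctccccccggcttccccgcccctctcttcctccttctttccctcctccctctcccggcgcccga

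Depth, worked out from the deposited values, was 7.96 and 9.84 M ChIP reads in DMSO and 7.76 and 8.04 M in I-BET151 (M, the SI prefix mega), with 2.67 to 3.04 M input reads. The weakest called peaks had 13 to 17 ChIP reads at their summit, the position of greatest height, so weaker acetylation would not appear in these lists. The strongest had 478 to 500, close to the 494 to 544 read starts, 1 per position and strand, that can cover a summit once duplicates are removed and reads are extended to 247 to 272 bp. As for the labelled cell type, 9 of 9 pancreatic progenitor markers, among them PDX1, NKX6-1 and SOX9, had a promoter peak in every library. None of 5 endocrine and none of 4 mesenchymal markers had one in any library. Peaks in all 4 libraries were also seen at 1 of 4 pluripotency markers (LIN28B), 1 of 3 hepatic markers (APOA1) and 1 of 3 intestinal markers (CDX2), while VIL1 had one in 3 libraries and PECAM1 in 2.

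To ask whether I-BET151 changed the acetylated stretch of these genes, the length covered by peaks in each window was compared between the groups. Of the 10 genes, TCF7L2 had more covered length in both I-BET151 libraries than in both DMSO libraries, ZNRF3 and TCF7 had less, AXIN2, LGR4, RNF43 and TCF7L1 had overlapping groups, and LGR5, SP5 and LEF1 had no peak in any library. Among the 7 genes with a peak this is 14.3% higher and 28.6% lower, against a background of 12.5% higher and 44.4% lower over the 15184 protein-coding genes with a peak. The median difference over these 7 genes was −1.5 bp, against −94 bp over all genes with a peak. With 2 libraries a group the two-sided exact permutation test cannot go below p = 0.333, so no single gene could pass a threshold. With single libraries left out in turn, the differences of AXIN2, LGR4, RNF43 and TCF7L1 took both signs. ZNRF3 and TCF7 stayed negative and TCF7L2 stayed positive. Where groups do not overlap, leaving out 1 library cannot change the sign, so this outcome was fixed in advance. A group of 1 library separates from the other group more easily for any gene. The share over all genes was not computed for these settings, so no counts are given for them.

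**Figure D1:**
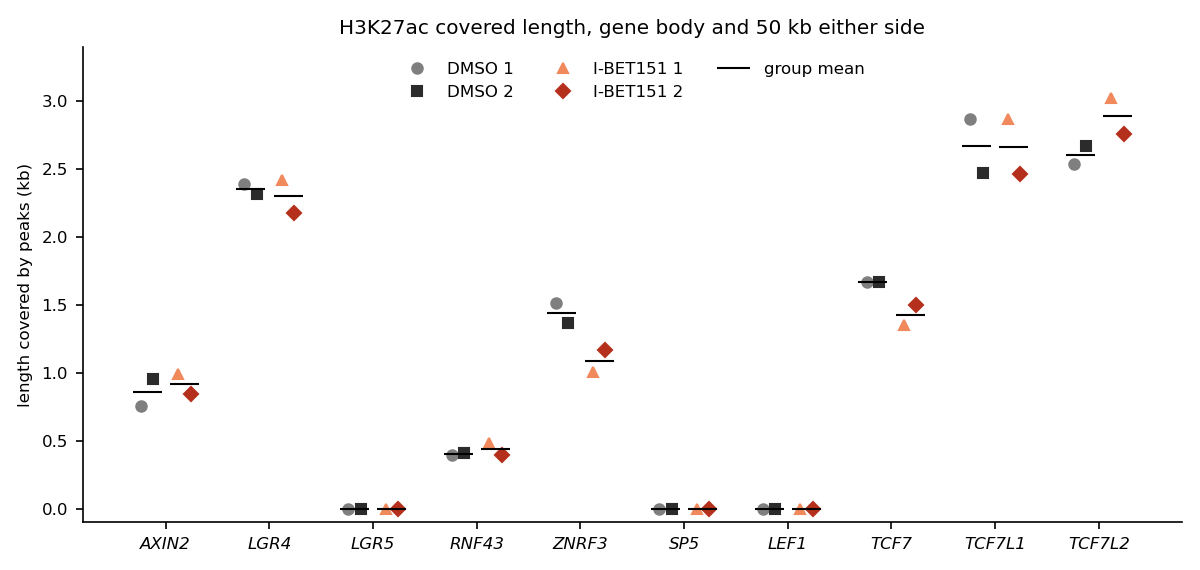
Length covered by H3K27ac peaks (kb) in the gene body with 50 kb added at each end, for the 10 genes on the horizontal axis. Each symbol is 1 library and each bar a group mean of 2; the I-BET151 symbols lie below both DMSO symbols for ZNRF3 and TCF7 and above both for TCF7L2, while LGR5, SP5 and LEF1 lie at 0 in all 4.

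AXIN2 (chr17:65528563-65561648, minus strand) had a single peak, at its own promoter, in every library. The peak spanned 760 and 955 bp in DMSO, against 991 and 846 bp in I-BET151. The groups overlapped, with means of 857.5 ± 138 bp (SD, n = 2) and 918.5 ± 103 bp (SD, n = 2; exact permutation p = 0.667). Its summit lay 183 to 227 bp from an annotated start of AXIN2. No other peak fell in the window of this gene in any library.

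The receptor LGR4 (chr11:27365961-27472790, minus strand) carried a promoter peak of 1352 and 1260 bp in DMSO, against 1283 and 1263 bp in I-BET151, which overlapped. The rest of its window held a peak at the promoter of CCDC34 and another at the promoter of LIN7C, and no peak that was not at a promoter. Over the whole window 2391 and 2319 bp were covered in DMSO, against 2421 and 2179 bp in I-BET151. At the CCDC34 promoter the ChIP height, in reads at the summit per M ChIP reads of the library (RPM), was 20.0 and 19.4 RPM in DMSO, against 26.0 and 28.1 in I-BET151. LIN7C on the other flank had 20.2 and 20.9 RPM in DMSO, against 16.6 and 18.2 in I-BET151, so that the I-BET151 values lay above DMSO on one flank of LGR4 and below it on the other (exact permutation p = 0.333 for each). Such separation was common, since 26.3% of 9251 genes were higher and 28.8% lower in RPM at their own promoter without overlap.

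LGR5 (chr12:71439798-71586310, plus strand), the sister receptor known as a stem cell marker in WNT-dependent epithelia, had no called peak in its window in any of the 4 libraries. The closest peak lay 76641 to 76768 bp from the gene body, at the promoter of ZFC3H1. A window without any called peak was found for 24.1% of protein-coding genes.

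RNF43 (chr17:58353676-58417595, minus strand) had no peak at any of its own starts. All of the covered length in its window, 397 and 414 bp in DMSO, against 481 and 396 bp in I-BET151, belonged to the promoter of SUPT4H1, an elongation factor gene, 1004 to 1048 bp beyond the 3′ end of RNF43. At that promoter the fold over local input was 4.29 and 4.21 in DMSO, against 6.85 and 7.48 in I-BET151, with no overlap (exact permutation p = 0.333), while the covered length overlapped. The ratio of the group means was 1.69 in fold but 1.17 in ChIP height, with 22.2 and 20.0 RPM in DMSO, against 24.5 and 24.9 in I-BET151. In whole reads the groups overlapped, at 177 and 197 in DMSO, against 190 and 200 in I-BET151.

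ZNRF3 (chr22:28883572-29057488, plus strand), the other ligase of this pair, had less covered length away from its promoter in both I-BET151 libraries. The window held 1518 and 1370 bp in DMSO, against 1009 and 1166 bp in I-BET151, with means of 1444 ± 105 bp (SD, n = 2) and 1087.5 ± 111 bp (SD, n = 2), a difference of −356.5 bp or −24.7% (exact permutation p = 0.333). The promoter peak did not follow, with 540 and 461 bp in DMSO, against 470 and 573 bp in I-BET151. Outside the promoter 978 and 909 bp were covered in DMSO, against 539 and 593 bp in I-BET151.

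That outer part of ZNRF3 consisted of a pair of neighbouring regions in an intron about 147 kb past the gene start, the first printed above in part and the second whole. The nearest annotated start was that of C22orf31, 31079 and 30037 bp from their summits. Which gene these regions act on was not tested. The first (chr22:29030487-29031173) was called in all 4 libraries. Its ChIP height was 20.1 and 20.8 RPM in DMSO, against 13.9 and 15.8 in I-BET151, and the ratio of the group means was 0.726 with no overlap (exact permutation p = 0.333). Among own promoters of all genes 28.8% were lower in RPM without overlap, and no such share was computed away from promoters. The fold over local input there was 4.78 and 4.72 in DMSO, against 3.94 and 3.59 in I-BET151. The second (chr22:29031645-29031943), 472 bp further on, was called in the DMSO libraries, with a fold of 7.05 and 9.30, but in neither I-BET151 list. It belonged to the weaker peaks of its lists: ranked by p-value it stood at 84.8% and 77.6% of the way down. Whether fewer cells carried the mark or each carried less of it cannot be told apart in these bulk libraries, here or at the other genes.

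**Figure D2:**
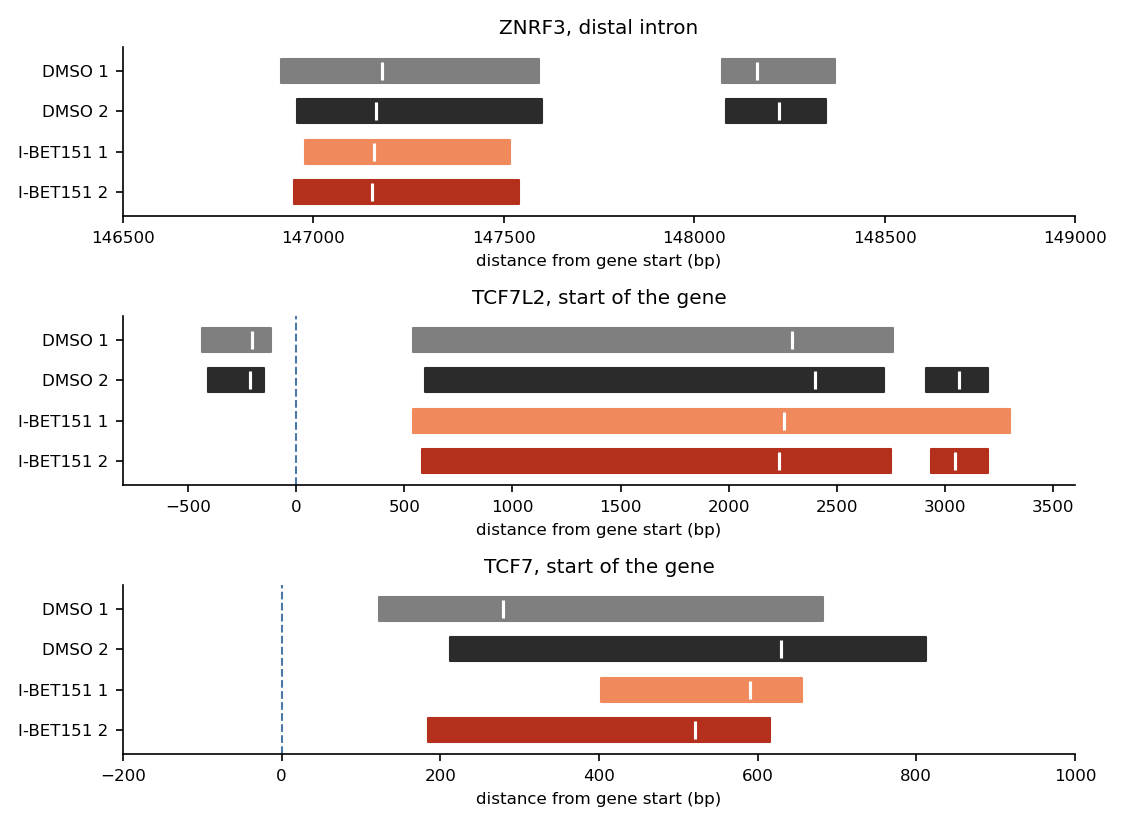
Called H3K27ac intervals of each library (bars, drawn to scale) with their summits (white ticks) against the distance from the gene start in bp, in the distal ZNRF3 intron and at the starts of TCF7L2 and TCF7 (dashed lines). The right-hand ZNRF3 interval and the one before the TCF7L2 start appear in both DMSO lists but in neither I-BET151 list, and the TCF7 interval is shortest in I-BET151 replicate 1, at 254 bp.

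SP5 (chr2:170715337-170718078, plus strand) and LEF1 (chr4:108047545-108168956, minus strand), both known as WNT target genes in many cell types, had no called peak. The closest peak to SP5 lay 211050 to 211108 bp away, at the promoter of GORASP2, and the closest to LEF1 lay 57197 to 57281 bp away, at the promoter of HADH. The TCF/LEF letters before the SP5 start printed above were thus outside the called acetylation in both groups.

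TCF7 (chr5:134114681-134151865, plus strand), which encodes TCF1, carried the weakest promoter peak of the genes that had one. It measured 560 and 601 bp in DMSO, against 254 and 433 bp in I-BET151, with means of 580.5 ± 29.0 bp and 343.5 ± 127 bp (SD, n = 2 each; exact permutation p = 0.333). Over the whole window 1668 and 1669 bp were covered in DMSO, against 1352 and 1499 bp in I-BET151, a difference of −243 bp. The rest of the window was the promoter of SKP1, a ubiquitin ligase component, at 1108 and 1068 bp in DMSO, against 1098 and 1066 bp in I-BET151. The −log10 q of the TCF7 promoter peak was 5.63 and 6.70 in DMSO, against 3.43 and 3.32 in I-BET151, near the bottom of each list. With only the 12312 peaks of lowest p-value kept in each list, the TCF7 difference turned to +210.5 bp, since the promoter peak then remained in I-BET151 replicate 2 only.

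TCF7L1 (chr2:85133392-85310387, plus strand), a TCF best known as a repressor, had overlapping groups over the window, with 2867 and 2470 bp in DMSO, against 2870 and 2464 bp in I-BET151. Its promoter peak spanned 1311 and 1551 bp in DMSO, against 1465 and 1491 bp in I-BET151. In the introns, 3 further regions were called, and none of them followed the groups. The region chr2:85189584-85189867 was called only in DMSO replicate 1. I-BET151 replicate 1 alone had the region chr2:85255899-85256400, at a fold of 14.2. The region chr2:85257558-85257897 was called in DMSO replicate 1 and I-BET151 replicate 2. At the TGOLN2 and the ELMOD3 and RETSAT promoters downstream, 932 and 919 bp were covered in DMSO, against 903 and 719 bp in I-BET151. The TGOLN2 promoter had a fold of 8.15 and 13.1 in DMSO, against 6.51 and 6.38 in I-BET151, a ratio of 0.607 with no overlap (exact permutation p = 0.333), while its RPM overlapped, at 21.1 and 22.3 in DMSO, against 19.0 and 21.2 in I-BET151.

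TCF7L2 (chr10:112950247-113167678, plus strand), which is also the best known risk gene for type 2 diabetes, had the tallest promoter peak of these genes in every library. In all 4 libraries a region of up to 2758 bp began 541 to 594 bp past the gene start and covered 2218 and 2411 bp in DMSO, against 2758 and 2428 bp in I-BET151. Over the window the covered length was 2535 and 2671 bp in DMSO, against 3023 and 2762 bp in I-BET151, with means of 2603 ± 96.2 bp and 2892.5 ± 185 bp (SD, n = 2 each), a difference of +289.5 bp or 11.1% (exact permutation p = 0.333). Before the start, the region chr10:112949814-112950130 was called in both DMSO lists, at a fold of 6.36 and 5.40, but in neither I-BET151 list. Further peaks in introns were called in 1 library each, at chr10:113073718-113073982 in I-BET151 replicate 1 and at chr10:113126727-113127060, 46 bp from an internal start, in I-BET151 replicate 2. The difference was +578 bp in the gene body alone, +157 bp at the promoters alone and +159 bp without I-BET151 replicate 1. All of these settings kept the peak at the internal start, which gave 334 bp of the total of I-BET151 replicate 2. Without that peak this library would have 2428 bp, below both DMSO totals of 2535 and 2671 bp, and the groups would overlap.

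**Figure D3:**
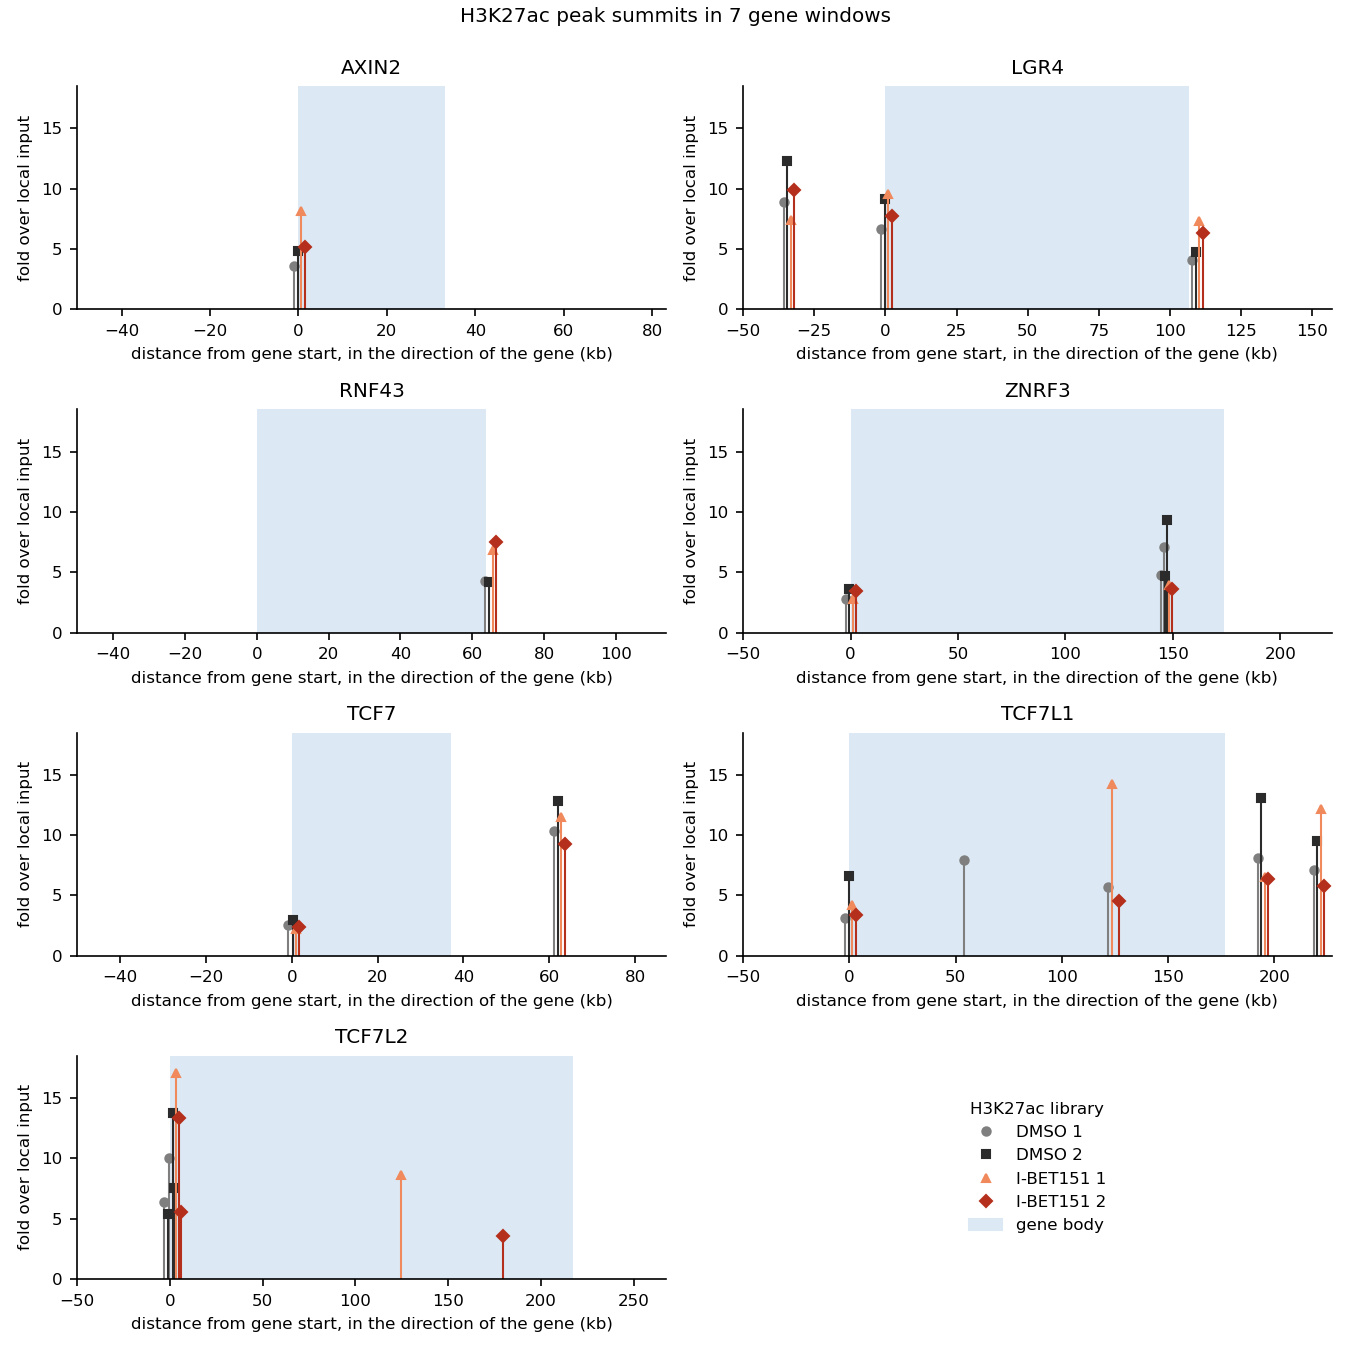
Fold over local input at every H3K27ac peak summit in the 7 windows that held a peak, against the distance from the gene start in kb in the direction of the gene. Shading marks the gene body, symbols mark libraries and are shifted slightly sideways so that they can be told apart; RNF43 has no peak in its gene body, and the ZNRF3 peaks lie at its start and about 147 kb into the gene.

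Peak height at the genes' own starts was compared next. A summit within 3 kb of a start of the same gene was present in all 4 libraries for AXIN2, LGR4, ZNRF3, TCF7, TCF7L1 and TCF7L2 and in no library for RNF43, LGR5, SP5 and LEF1. Of all protein-coding genes, 47.0% had such a peak in all 4 libraries and 43.8% in none. In fold over local input, AXIN2 was higher in both I-BET151 libraries (background 24.3% of 9397 genes), TCF7 was lower in both (background 16.1%), and the other 4 overlapped. The height of the ChIP signal alone, in RPM, gave another picture: LGR4 and TCF7L2 were higher (background 26.3% of 9251 genes), TCF7 and TCF7L1 were lower (background 28.8%), and AXIN2 and ZNRF3 overlapped. Counts of this size are near those backgrounds. Over all genes the median ratio of I-BET151 to DMSO was 1.05 in fold and 0.998 in RPM.

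The heights fell into a similar order in both groups. TCF7L2, with 55.8 and 46.8 RPM in DMSO, against 61.4 and 59.7 in I-BET151, and LGR4, with 52.5 and 44.0 in DMSO, against 53.0 and 54.5 in I-BET151, overlapped in DMSO but not in I-BET151. TCF7L1, with 28.5 and 28.0 in DMSO, against 25.8 and 27.5 in I-BET151, and AXIN2, with 25.9 and 26.4 in DMSO, against 25.5 and 26.9 in I-BET151, overlapped in I-BET151 but not in DMSO. ZNRF3 had 20.1 and 17.7 in DMSO, against 18.8 and 21.4 in I-BET151. TCF7 was the lowest, with 14.8 and 14.1 in DMSO, against 13.5 and 13.8 in I-BET151. The TCF7L2 summit was taller than 99.4 to 99.9% of the peaks of its list and the TCF7 summit taller than 17.8 to 26.9%, so this family of TCF genes spanned most of the range of heights.

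At AXIN2 the 2 measures differed. Its fold was 3.62 and 4.84 in DMSO, against 8.15 and 5.19 in I-BET151, with means of 4.23 ± 0.863 and 6.67 ± 2.09 (SD, n = 2 each), a ratio of 1.58 (exact permutation p = 0.333), or 1.23 without I-BET151 replicate 1. The ChIP height had a ratio of 1.00. The local input level that the peak caller set against the summit, as a multiple of the genome-wide input level, was 68.6 and 56.7 in DMSO, against 30.2 and 52.9 in I-BET151. Before that scaling it was 21 and 15 in DMSO, against 8.64 and 13 in I-BET151. These are small levels, and no counting interval was computed for them. I-BET151 replicate 1 thus combined the highest fold with the lowest input, and its ChIP height of 25.5 (95% Poisson interval 22.1 to 29.3) was the lowest of the 4. Over all peaks the median input multiple ran from 37.8 to 42.4 in the 4 libraries.

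At TCF7L2 the fold was 10.0 and 13.8 in DMSO, against 17.0 and 13.4 in I-BET151, which overlapped, and the ratio in RPM was 1.18 with no overlap (exact permutation p = 0.333). In whole reads its summit had 444 and 460 in DMSO, against 476 and 480 in I-BET151, 89.7 to 97.2% of the highest summit of its list. LGR4 had 418 and 433 reads in DMSO, against 411 and 438 in I-BET151, 82.2 to 90.6% of the highest. These heights are close to the number of read starts left after duplicate removal, and the lowest RPM at both genes came from DMSO replicate 2, the deepest library. The part of this ceiling in the difference was not tested.

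Of the remaining promoters TCF7 alone had no overlap in fold. There the fold was 2.54 and 2.99 in DMSO, against 2.22 and 2.36 in I-BET151, a ratio of 0.828, and the height had a ratio of 0.945, with 118 and 139 reads in DMSO, against 105 and 111 in I-BET151. The input multiple at TCF7 moved the other way, from 55.9 and 49.1 in DMSO to 63.0 and 61.0 in I-BET151. TCF7L1 had a fold of 3.13 and 6.62 in DMSO, against 4.17 and 3.38 in I-BET151, so that the DMSO replicates differed from each other by more than the group means did. Its height had a ratio of 0.944, and at TCF7L1 as at TCF7 the 95% Poisson intervals of all 4 libraries overlapped. ZNRF3 had a fold of 2.82 and 3.58 in DMSO, against 2.77 and 3.41 in I-BET151. LGR4 had 6.69 and 9.17 in DMSO, against 9.53 and 7.70 in I-BET151.

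**Figure D4:**
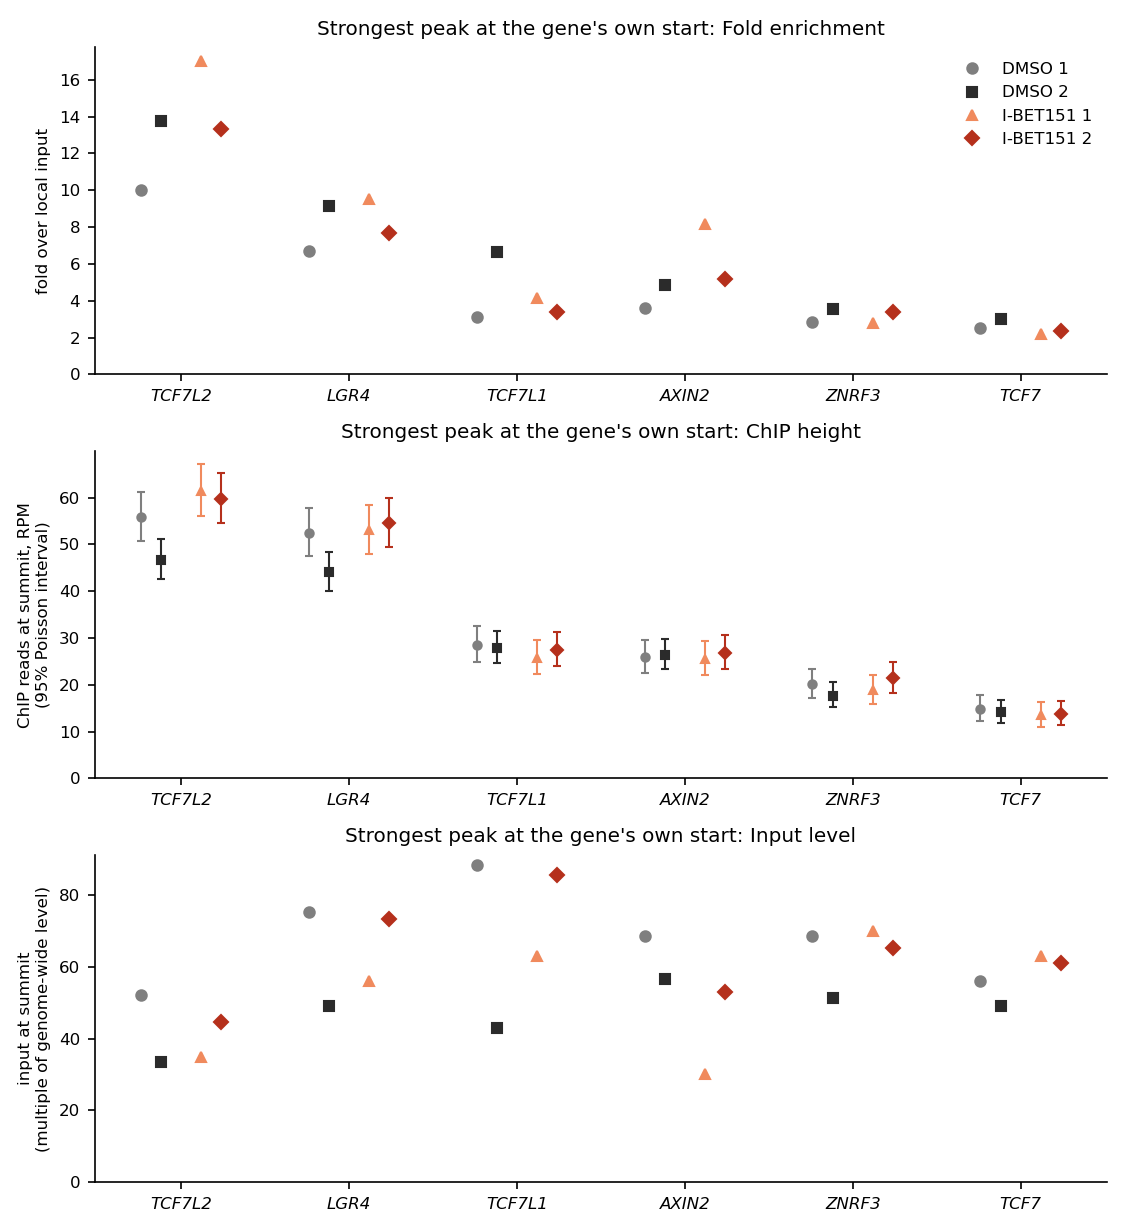
Fold over local input, ChIP RPM and local input level for the strongest peak at the own start of 6 genes. RPM at the summit has 95% Poisson intervals (counting error only). The local input level is the peak caller's, as a multiple of the genome-wide level. Each symbol is 1 library; at AXIN2 the fold of I-BET151 replicate 1 is the highest, at 8.15, while its RPM of 25.5 lies within the intervals of the other 3 and its input is the lowest, at 30.2.

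Of the 20 regions in these windows, 13 were called in all 4 libraries, 65% against 65.5% of all regions. None was gained, that is, called with I-BET151 in both replicates and absent from both DMSO lists (background 2.81%). The 2 lost regions, in ZNRF3 and before TCF7L2, made 10% (background 8.6%), and both were among the weaker peaks of the DMSO lists. The other 5 were called in a mixed set of libraries, 25% against 23.1% of all regions. By position, 8 of the 20 lay at a promoter of the gene itself, 6 at the promoter of a neighbour and 6 away from any promoter. Without I-BET151 replicate 2, 2 regions counted as gained, against 952 of all 15560 regions in that setting. Without I-BET151 replicate 1, 1 did, against 701 of all 15354.

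The TCF/LEF letters CTTTGAT, searched on both strands within 250 bp of the summit, occurred in 3 of the 20 regions (15%), at the AXIN2 promoter, in the shared ZNRF3 intron region and near chr2:85257558-85257897 in TCF7L1, where the match lay outside the called interval. Of all 15752 regions 2.08% held a match. Within 100 bp of the summit none of the 20 regions held it, against 0.47% of all. With CTTTGAA added, the same count of 3 regions stood against 5.17% of all. For comparison, the AP-1 letters TGANTCA occurred in 2 of the 20 (10%, against 6.67% of all), and the FOXA letters TGTTTAC and the GATA letters AGATAA in none (against 2.65% and 6.09% of all). In the RefSeq promoter table for hg38, 794 of 35116 sequences (2.26%) held CTTTGAT in the 250 bases before the start, and among the 7 of these genes found in it SP5 did while LGR4, RNF43, LEF1, TCF7, TCF7L1 and TCF7L2 did not. AXIN2, LGR5 and ZNRF3 were not matched. A match is a description of letters and not of binding.

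Of 101 other WNT pathway genes, 78 had a peak in their window, of which 15 (19.2%) were higher and 28 (35.9%) lower in both I-BET151 libraries, set against the 12.5% and 44.4% of all genes given above. A promoter peak in all 4 libraries was seen at 47 of the 101 genes, near the 47.0% of all protein-coding genes. By role it was seen at 12 of 12 nuclear factors, 14 of 18 cytoplasmic components and 13 of 16 receptors. It was also seen at 4 of 13 target genes, 2 of 19 WNT ligands, 2 of 16 secreted or membrane inhibitors and none of 7 agonists and secretion genes. Windows of neighbouring genes overlap, so that the same peaks can count for several genes, as for WNT1 and WNT10B, for WNT6 and WNT10A, and for KREMEN1, whose window takes in the distal ZNRF3 intron. Among those without overlap, the largest positive differences in covered length were at EPHB3, an ephrin receptor (943 ± 569 bp in DMSO against 1962.5 ± 487 bp in I-BET151), ROR2, a WNT5A receptor (4008 ± 321 bp against 5021 ± 822 bp), and MYC (2744 ± 293 bp against 3746.5 ± 46.0 bp). The largest negative differences were at DVL1 (9538 ± 584 bp against 5968.5 ± 613 bp) and DVL2 (7640.5 ± 136 bp against 5337.5 ± 87.0 bp), which relay signals from Frizzled, and APC2 (10712.5 ± 810 bp against 7977 ± 1261 bp), a relative of the APC scaffold (SD, n = 2 each; exact permutation p = 0.333 for each gene). EPHB3 and APC2 had no promoter peak of their own, so that their covered length belonged to other parts of their windows. For ROR2, MYC, DVL1 and DVL2 the covered length was not split by place. It can include peaks at neighbouring genes, so these differences are not shown to lie at the named genes.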

How the data were processed

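H3K27ac was profiled in 4 libraries of MEL1-derived PPs, and 4 input libraries were not analysed here as separate samples. The authors used Bowtie2 (2.2.5) in local mode for alignment to hg38, filtered the reads, took out duplicates and called peaks for each library with MACS2 (2.1.2) defaults. Duplicate removal limits peak height, and a fixed threshold leaves out weak peaks in shallow libraries. The deposited lists give positions, a score (not used), fold enrichment as a ratio, and −log10 of the p-value and q-value, all by the authors' peak caller. Groups came from library titles.

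ChIP reads at a summit and the local input level were solved from the deposited fold and p-value, as MACS2 forms them with a pseudocount of 1 and a Poisson distribution, for 99.0 to 99.8% of peaks. The step was tested on simulated data. The genome-wide input level and depth then follow from the 2.7e+09 bp that MACS2 assumes. Reads were scaled per M (the SI prefix mega) ChIP reads, giving RPM, and 1 read is worth 0.102 to 0.129 RPM. Intervals cover counting error only. Covered length was summed per gene window, with higher or lower meaning that the groups did not overlap, and single values were compared by two-sided exact permutation over 6 assignments of libraries. Alternatives changed the window, threshold, list length, merging, promoter distance and replicates. The 10 genes were all named, and of other pathway genes the 3 largest non-overlapping differences in each direction. Members and lists were chosen with earlier results of these data known. The alternatives using RPM, own promoters only and other motifs were chosen after seeing the data. Python 3.11.15, pandas 2.3.3 and scipy 1.17.1 were used.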

Additional observations from a re-analysis of the deposited data

How the results depend on the processing

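The count of 2 lower genes became 4 with 100 kb on either side, where LGR5 and LEF1 reached peaks at neighbours' promoters. It became 1 with equal numbers of top-ranked peaks or with own promoters only. The share of lower genes over all genes with a peak, 44.4%, was computed for the main setting only. The counts in the changed settings thus have no background, and no conclusion is drawn from them. Leaving out 1 library in turn gave differences of −435 to −278 bp for ZNRF3, −316.5 to −169.5 bp for TCF7 and +159 to +420 bp for TCF7L2. It gave 2 to 3 lost and 0 to 2 gained regions. Over all regions the lost rose from 1355 to between 1644 and 2164, and the gained from 443 to between 595 and 952. The 2 lost regions, against 1355 of all 15752, became 1 in the gene body alone. With equal list lengths 1 was lost, against 870 of all 14651. With peaks within 500 bp merged 1 was lost, against 1120 of all 13938. A −log10 q of at least 5 gave 3, against 1316 of all 15218. The TCF/LEF count of 3 regions became 0 within 100 bp of the summit. TCF7 turned to +210.5 bp with equal list lengths, and was −586.5 bp with a −log10 q of at least 5, where both I-BET151 promoter peaks dropped out. ZNRF3 turned to +21 bp at its own promoter only.

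Replicate numbers were shared by the groups in the titles but nothing ties same-numbered libraries together, and the correlation of their deviations across genes was 0.110. With the replicate number as a block the differences of covered length are the same by arithmetic. They were −356.5 bp for ZNRF3, −243 bp for TCF7 and +289.5 bp for TCF7L2. Groups that do not overlap also keep their direction within numbered pairs, so this setting was no separate check of these genes. The fold at the ZNRF3 promoter, a ratio of 0.966 with overlapping groups, was lower in I-BET151 within both numbered pairs. For TCF7L2 no fold within 1 kb of a start was given, because 3 libraries had such a peak. With 2 libraries a group no test could pass a threshold, and acetylation below the peak caller's limit was not seen.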
